A study of Mus musculus with 8 samples.

Results

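Lens fiber cells (FC) build a cytoskeleton of intermediate filaments, and 8 genes of this family were described here across all libraries. The set is a list of gene symbols with no threshold on measured values, drawn up with earlier results of these data known. It holds Bfsp1 and Bfsp2 of the beaded filament, the cytoplasmic filament genes Vim, Synm and Nes, and the nuclear lamin genes Lmna, Lmnb1 and Lmnb2. Each of the 8 symbols matched 1 of the 35275 rows of the expression table. RNA was measured in 8 libraries of lens FC of C57BL/6 mice (C57BL/6J in the methods of the study), 4 of them after exposure of the animals to cigarette smoke (CS) and 4 from untreated control (Ct) animals of the same age. The CS-exposed mice were pups born in a whole-body smoke chamber and exposed for 5 hours/day and 5 days/week over 3.5 months. The Ct mice received no smoke. Every library was a pool of FC from the right eyes of 4 mice, so that a library averages its mice. The methods of the study describe male pools and female pools in equal number within each group, and the labels do not give the sex of each library. Expression was measured in fragments scaled to gene length and library size (FPKM), a unit per length that permits comparison of levels between genes.

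Intermediate filament proteins share a central coiled-coil rod and assemble into rope-like filaments without the help of a nucleotide. In the lens, epithelial cells carry vimentin filaments. As they differentiate, fiber cells add the beaded filament, a structure known only from the lens, made of filensin (Bfsp1) and phakinin (Bfsp2, also called CP49). The beaded filament lies beneath the fiber cell membrane and binds alpha crystallin, and mutations of BFSP1 and BFSP2 cause cataract. Lamins form the meshwork under the inner nuclear membrane, and mature fiber cells lose their nuclei together with that meshwork.

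Lens FC identity and admixed tissue were examined first, with fixed marker lists. All 10 markers of lens FC (among them Mip, Gja3 and Lgsn) reached a mean of 1.0 FPKM. Of 7 markers of the lens epithelium, 5 did, and their summed level was 39.2 to 96.9 FPKM in Ct and 30.9 to 56.8 FPKM in CS-exposed libraries. Of 9 rod photoreceptor markers, 7 reached 1.0 FPKM, and their sum was 6.93 to 24.0 FPKM in Ct and 26.8 to 87.2 FPKM in CS-exposed libraries, without overlap. Of 10 markers of pigmented cells 2 reached 1.0 FPKM, with sums of 1.75 to 3.71 FPKM in Ct and 3.11 to 26.0 FPKM in CS-exposed libraries, and Best1 was listed at 0 throughout. For 3 erythroid markers the sums were 0.187 to 1.59 FPKM in Ct and 0.50 to 20.8 FPKM in CS-exposed libraries, with overlap. For 4 markers of Müller glia and astrocytes they were 6.19 to 9.54 and 6.78 to 9.70 FPKM. Of these, Glul was at 4.55 to 6.56 FPKM in Ct and 5.60 to 7.68 FPKM in CS-exposed libraries. In the same order, Gfap was at 0.271 to 2.83 and 0.196 to 0.313 FPKM. Aqp4 was at 0.831 to 2.35 and 0.600 to 1.66 FPKM, and Slc1a3 at most 0.0549 FPKM. For 6 leukocyte markers the sums were at most 0.807 FPKM in any library. The fibroblast and vessel list of 8 genes was carried by Acta2 (268 to 316 FPKM), and its other genes were at most 0.353 FPKM. The part of these cells in the results below was not tested. In bulk RNA, fewer cells of a type and less RNA per cell cannot be told apart.

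The upstream sequences of the beaded filament pair are shown because these genes were the most abundant of the 8 and are used almost nowhere outside the lens. Both are RefSeq windows of the 250 bases before the annotated start in GRCm38, on the minus strand, at chr2:143863174-143863423 for Bfsp1 and chr9:103449177-103449426 for Bfsp2, written 5′ to 3′ with capitals for a matched motif. The Bfsp1 window ends at the gene as GENCODE draws it, whereas the Bfsp2 window lies before the RefSeq start but inside the longer GENCODE gene, in an intron of a longer transcript.
Bfsp1: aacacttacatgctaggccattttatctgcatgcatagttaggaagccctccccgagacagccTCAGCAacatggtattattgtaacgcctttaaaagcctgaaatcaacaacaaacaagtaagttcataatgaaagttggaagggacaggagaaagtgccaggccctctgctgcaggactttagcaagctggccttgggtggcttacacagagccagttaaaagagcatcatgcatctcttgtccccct
Bfsp2: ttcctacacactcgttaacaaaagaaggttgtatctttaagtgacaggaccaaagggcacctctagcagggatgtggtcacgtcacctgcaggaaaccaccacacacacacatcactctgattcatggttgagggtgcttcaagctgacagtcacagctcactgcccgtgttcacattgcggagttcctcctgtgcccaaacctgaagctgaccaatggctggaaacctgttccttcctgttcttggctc
Both strands were searched for 3 motifs. TGCTGA, an end of the recognition element of Maf factors, was found once, as TCAGCA, at 187 to 182 bases before the start of Bfsp1 and not in the window of Bfsp2. Among 32851 RefSeq windows of the same length, 16.1% held it. Neither window held GAANNTTC, a core of heat shock elements found in 6.69% of windows, or the TATA box TATAAA, found in 12.4%. A match is a description of letters and not a mapped binding site.

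Expression of the 8 genes spanned a 54844-fold range of mean FPKM, in the order Bfsp1, Bfsp2, Vim, Synm, Lmna, Lmnb2, Lmnb1 and Nes. The ranges of neighbours in this order over the 8 libraries did not overlap. Bfsp1 was the 13th most abundant gene in every library, and the 12 genes with a higher mean were all crystallins. Bfsp1 and Bfsp2 made up 1.0% and 0.336% of the summed FPKM, and together 3.83% of what was left without the 17 crystallin genes. Levels in FPKM depend on the gene lengths used. The lengths implied by the deposited values were close to the annotated exon union for Bfsp1 (2372 and 2390 bases) but far from it for Vim (2193 and 4743) and Lmna (3156 and 5838). With the annotated lengths Vim would have a mean of 465 FPKM in place of 1007 and Lmna 6.37 in place of 11.8, and the order of the 8 genes was the same.

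**Figure D1:**
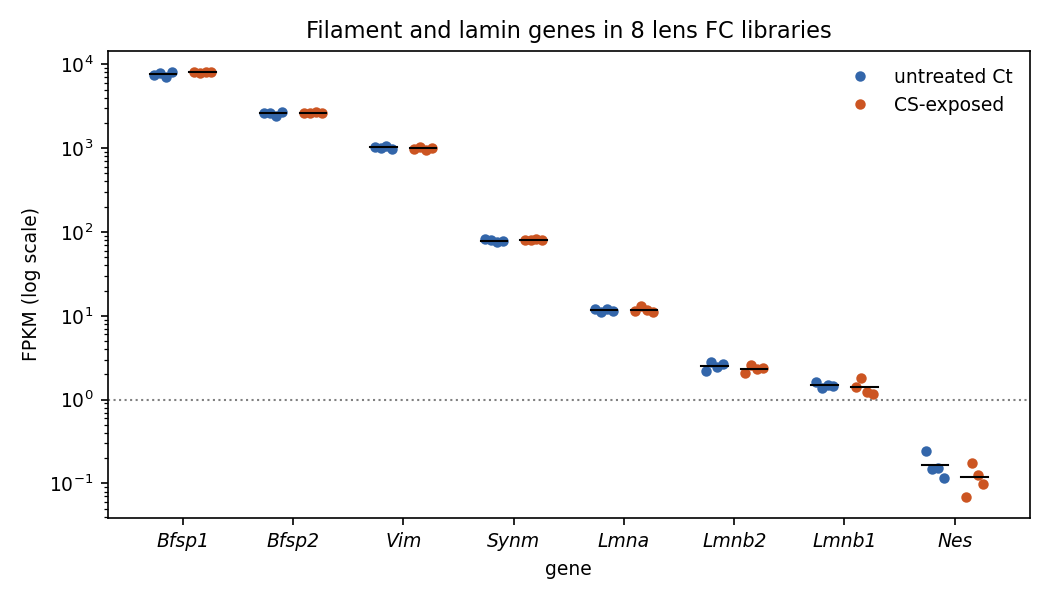
FPKM of the 8 genes (log scale) in each library, with untreated Ct in blue, CS-exposed in orange and group means as black lines. The dotted line marks 1.0 FPKM, which Nes did not reach, and the groups overlap for every gene.

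Bfsp1 (ENSMUSG00000027420.13, chromosome 2 of GRCm38, 143826528 to 143863173) encodes filensin. Its expression was 7519, 7976, 6993 and 8032 FPKM in Ct replicates 1 to 4 and 7993, 7784, 8050 and 8094 FPKM in CS-exposed replicates 1 to 4. Ct replicate 3 was the lowest of the 8, and 2 CS-exposed libraries were above every Ct library, so that the groups overlapped. The means were 7630 ± 483 FPKM in Ct and 7980 ± 137 FPKM in CS-exposed mice (SD over 4 libraries). The log2 fold change was 0.07, with a standard error of 0.04 and a 95% interval of -0.03 to 0.16 (limma adjusted p = 0.956). On the linear scale the interval runs from 0.983- to 1.12-fold. A test of the recovered reads with limma-voom put the unadjusted p value under 0.05 but not the adjusted one (limma-voom adjusted p = 0.954).

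Bfsp2 (ENSMUSG00000032556.11, chromosome 9, 103424924 to 103480420) encodes phakinin, the partner of filensin. Its level was 2646, 2604, 2435 and 2670 FPKM in Ct and 2623, 2638, 2733 and 2612 FPKM in CS-exposed replicates 1 to 4. The lowest value was again that of Ct replicate 3, and 1 CS-exposed library was above every Ct library. The log2 fold change was 0.04 with a 95% interval of -0.04 to 0.11 (limma adjusted p = 0.976). An antisense gene, 5830418P13Rik, shares exon bases with Bfsp2 in the annotation and was at 8.67 to 11.95 FPKM. Whether reads were counted by strand is not given in the sources used here.

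The ratio of Bfsp2 to Bfsp1, which does not depend on the depth of a library, was 0.352, 0.326, 0.348 and 0.332 in Ct and 0.328, 0.339, 0.340 and 0.323 in CS-exposed libraries. All 8 values lay between 0.323 and 0.352, and the groups overlapped. The log2 ratio was lower in CS-exposed mice by a difference of -0.03 (two-sided exact permutation test, p = 0.371, adjusted p = 0.464 over 5 ratios). Per unit of length, Bfsp1 was the more abundant of the pair in every pool.

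Vim (ENSMUSG00000026728.9, chromosome 2, 13573927 to 13582826) encodes vimentin, which both lens epithelium and young fibers use. It was measured at 1038, 1014, 1057 and 979 FPKM in Ct and 977, 1036, 963 and 990 FPKM in CS-exposed replicates 1 to 4. The highest value was that of Ct replicate 3, and 2 CS-exposed libraries were below every Ct library. The log2 fold change was -0.04 with a 95% interval of -0.12 to 0.04 (limma adjusted p = 0.962). The ratio of Vim to Bfsp1 was 0.135 ± 0.0129 in Ct and 0.124 ± 0.0060 in CS-exposed mice (SD over 4 libraries), and the log2 difference was -0.11 (exact permutation p = 0.229, adjusted p = 0.464).

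Synm (ENSMUSG00000030554.16, chromosome 7, 67730160 to 67759742) encodes synemin, which does not form filaments alone and joins those of vimentin. The level of Synm was 81.7, 80.4, 75.8 and 78.2 FPKM in Ct and 79.4, 79.2, 83.3 and 80.9 FPKM in CS-exposed replicates 1 to 4. The lowest and the highest value were those of Ct replicate 3 and CS-exposed replicate 3, and the groups overlapped. Between the groups, Synm had a log2 fold change of 0.03 with a 95% interval of -0.07 to 0.13 (limma adjusted p = 0.985). Its exons overlap those of Ttc23 on the other strand, which was at 0.381 to 1.25 FPKM.

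Nes (ENSMUSG00000004891.16, chromosome 3, 87971078 to 87980451) encodes nestin, a filament protein of progenitor cells that also needs a partner. It was at 0.246, 0.149, 0.154 and 0.117 FPKM in Ct and 0.0696, 0.177, 0.127 and 0.0981 FPKM in CS-exposed replicates 1 to 4, on 9 to 30 reads per library. Nes was the only one of the 8 genes under the minimum of 1.0 FPKM and did not enter the fit. Its mean on the log2(FPKM + 0.1) scale differed by -0.29 (two-sided exact permutation test, p = 0.229), and the groups overlapped. The difference was -0.16 without Ct replicate 1 and -0.181 without CS-exposed replicate 1.

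Lmna (ENSMUSG00000028063.15, chromosome 3, 88480147 to 88509956) encodes lamins A and C, which arise by splicing and are not separated in values per gene. Its level was 12.2, 11.2, 11.98 and 11.4 FPKM in Ct and 11.5, 13.2, 11.7 and 11.1 FPKM in CS-exposed replicates 1 to 4. CS-exposed replicate 2 was the highest and replicate 4 the lowest of all 8. Lmna had a log2 fold change of 0.02 with a 95% interval of -0.14 to 0.19 (limma adjusted p = 0.995).

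The B-type lamins were close to the threshold of expression. Lmnb2 (ENSMUSG00000062075.13, chromosome 10, 80901203 to 80918245) was at 2.22, 2.81, 2.46 and 2.66 FPKM in Ct and 2.05, 2.58, 2.29 and 2.41 FPKM in CS-exposed replicates 1 to 4. Lmnb1 (ENSMUSG00000024590.8) was at 1.61, 1.39, 1.51 and 1.46 FPKM in Ct and 1.42, 1.81, 1.23 and 1.15 FPKM in CS-exposed replicates 1 to 4. In both genes the groups overlapped, and within the CS-exposed group replicate 2 was the highest for all 3 lamin genes. The log2 fold change was -0.12 for Lmnb2 (95% interval -0.40 to 0.16, limma adjusted p = 0.981) and -0.10 for Lmnb1 (95% interval -0.49 to 0.29, limma adjusted p = 0.985). Leaving out 1 library in turn moved the first from -0.177 (without Ct replicate 1) to -0.0599 (without CS-exposed replicate 1) and the second from -0.222 (without CS-exposed replicate 2) to -0.0187 (without CS-exposed replicate 4). The 95% intervals still include a 0.711-fold and a 1.22-fold level of Lmnb1 in CS-exposed mice.

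Lamin A/C transcripts outnumbered those of the B-type lamins in every library. The ratio of Lmna to Lmnb1 was 7.84 ± 0.197 in Ct and 8.62 ± 1.09 in CS-exposed mice, and that of Lmna to Lmnb2 was 4.65 ± 0.667 and 5.11 ± 0.422 (SD over 4 libraries). The ratio of Lmnb2 to Lmnb1 was 1.71 ± 0.275 and 1.70 ± 0.324. The size of these ratios depends on the gene lengths used. With the annotated lengths the mean FPKM would be 6.37 for Lmna, 2.01 for Lmnb2 and 1.39 for Lmnb1. The 3 ratios did not pass the test (exact permutation p = 0.286, 0.286 and 0.971, adjusted p = 0.464, 0.464 and 0.971 over 5 ratios). For Lmna to Lmnb1, 3 CS-exposed libraries were above and 1, CS-exposed replicate 2, was below every Ct library. The log2 difference of this ratio was 0.13, and it was 0.206 without CS-exposed replicate 2, 0.0808 without replicate 3 and 0.0747 without replicate 4. Without replicate 2 the groups no longer overlapped, which follows from leaving out the only library below the Ct group.

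The number of reads behind these values differed widely between the genes. Whole reads, recovered from the steps of the FPKM values, numbered 344706 to 426360 per library for Bfsp1, 80493 to 101472 for Bfsp2, 38838 to 53888 for Vim and 11126 to 14389 for Synm. They numbered 652 to 964 for Lmna, 153 to 210 for Lmnb2 and 71 to 119 for Lmnb1. Counting error alone gives a coefficient of variation of 0.161% for Bfsp1, whereas the libraries varied by 6.33% in Ct and 1.72% in CS-exposed mice. For Vim the values were 0.467%, 3.29% and 3.21%. For Lmna counting error was 3.6%, beside 4.07% between Ct and 7.91% between CS-exposed libraries. It was 10.9% for Lmnb1, above the 6.23% between Ct libraries and below the 20.9% between CS-exposed ones, and 7.50% for Lmnb2, beside 10.1% and 9.41%. Nes had 24.6% from counting and 33.3% and 38.8% between libraries. The pooled SD of Synm was smaller than that of 98.9% of the 9794 genes tested.

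**Figure D2:**
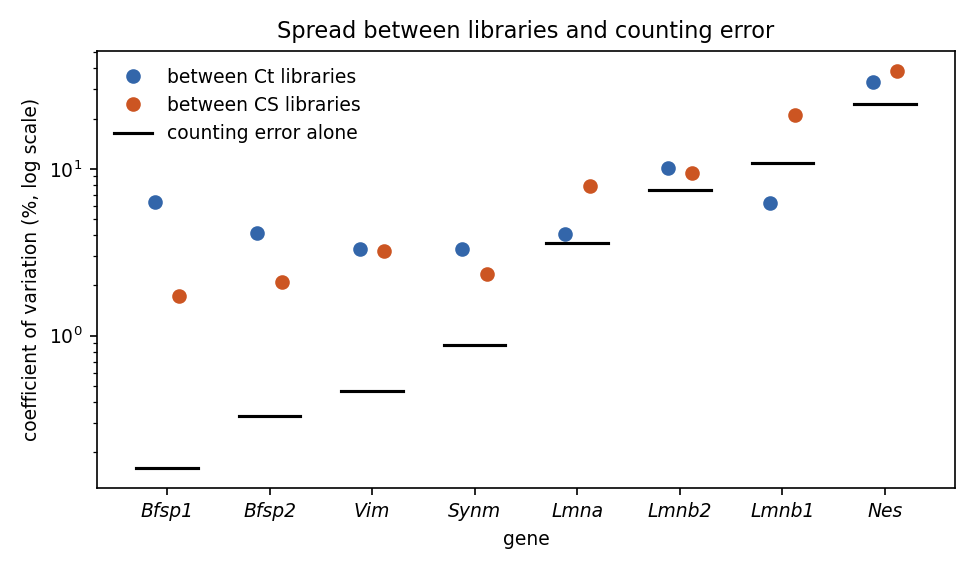
Coefficient of variation (log scale, %) of each gene between the 4 Ct (blue) and the 4 CS-exposed libraries (orange), with black lines for the variation from counting reads alone. The points of Bfsp1, Bfsp2, Vim and Synm lie above their lines, and of Lmnb1 the Ct point lies below its line and the CS-exposed point above it.

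For the comparison of CS-exposed with Ct mice as a whole, 0 of the 7 genes tested had a limma p value under 0.05, beside 4.83% of all 9794 genes tested. With limma-voom on recovered reads the count was 1 (Bfsp1), beside 4.94% of genes. In 0 of the 8 genes were the CS-exposed libraries all above or all below the Ct libraries, beside 3.08% of all genes tested. The estimates were higher in CS-exposed mice for 4 of the 8 genes and lower for 4, and their median log2 difference was -0.01 over the 8 genes. Over the 7 genes in the fit, without Nes, the median log2 fold change was 0.02, beside 0.0043 over all genes tested. The smallest adjusted p value among the 7 genes was 0.956. The intervals of the abundant genes were narrow: that of Bfsp2 runs from 0.972- to 1.08-fold, that of Vim from 0.918- to 1.03-fold and that of Synm from 0.955- to 1.09-fold. Replicates 1 and 2 of both groups had almost no Xist RNA and replicates 3 and 4 had 41.1 to 49.0 FPKM, and the genes were therefore also compared within each of these sets of libraries. Bfsp1 had a log2 fold change of 0.03 in replicates 1 and 2 and of 0.11 in replicates 3 and 4, and Vim of -0.03 and -0.06. Synm (-0.03 and 0.09), Lmna (0.08 and -0.04) and Lmnb1 (0.09 and -0.29) took opposite signs, and 0 of the 7 genes had a limma p value under 0.05 in either set.

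**Figure D3:**
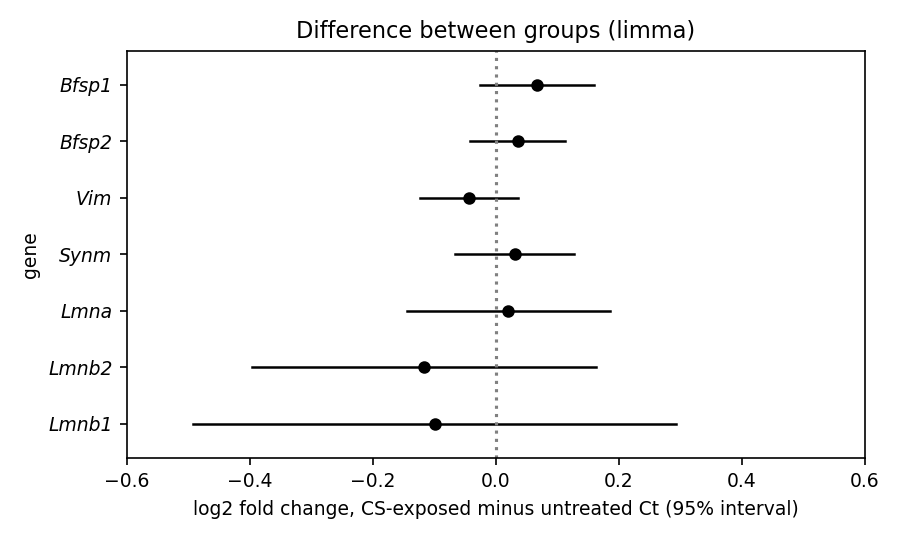
Log2 fold change of CS-exposed against untreated Ct mice with 95% intervals from limma for the 7 genes that entered the fit. All intervals include 0, from -0.04 to 0.11 for Bfsp2 and from -0.49 to 0.29 for Lmnb1.

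Over the 8 libraries, Bfsp1 and Vim moved in opposite directions. Pearson's r of their log2 values was -0.827 (exact permutation p = 0.00129, adjusted p = 0.0464 over 36 correlations) and Spearman's rho was -0.833 (exact permutation p = 0.0154, adjusted p = 0.261). With Ct replicates 1 and 3, the most distant in Bfsp1, left out, r was -0.806, and on deviations from the group means it was -0.775. It differed between scalings of the libraries. With each library centred on its median gene r was -0.195 (exact permutation p = 0.615), and with library totals without the crystallins it was -0.749 (exact permutation p = 0.029). On deviations from the means of the sets with low and high Xist, r was -0.887 (exact permutation within the sets, p = 0.0226), and the 4 libraries of each set are too few for a value of their own. Ct replicate 3 had the lowest Bfsp1 and the highest Vim. This library also had the highest mean log2 level of the epithelium markers, 2.12 against 0.891 to 1.59 in the others, and the greatest depth. That score had an r of -0.672 with Bfsp1 (exact permutation p = 0.0663) and of 0.447 with Vim (exact permutation p = 0.269), and its part in the relation was not tested.

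**Figure D4:**
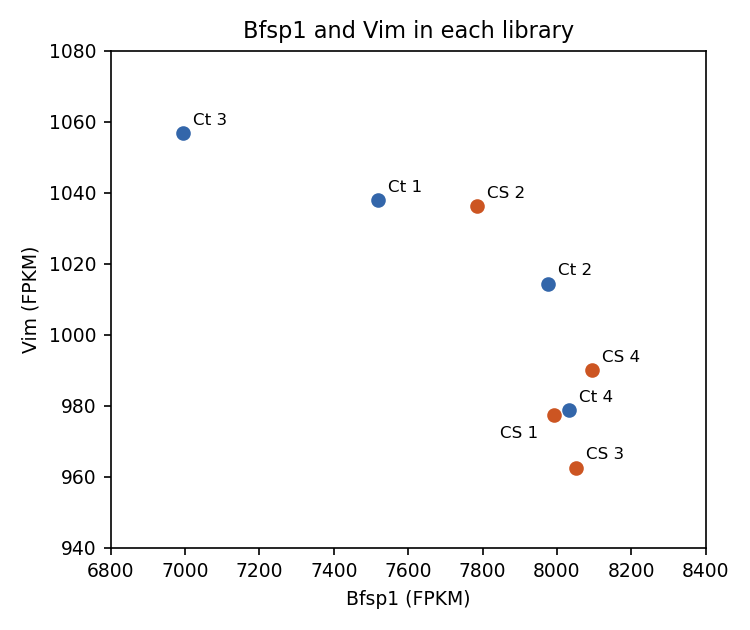
Vim against Bfsp1 (both in FPKM, axes not starting at 0), 1 point per library, Ct in blue and CS-exposed in orange, with group and replicate number beside each point. Ct 3 is at the upper left, with 6993 FPKM of Bfsp1 and 1057 of Vim, and CS 3 at the lower right.

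Bfsp1 and Bfsp2 themselves had an r of 0.799 (exact permutation p = 0.0605) and a rho of 0.381 (exact permutation p = 0.360), and r fell to 0.189 without the 2 farthest libraries, Ct replicates 1 and 3. Of this pair, Ct replicate 3 was the lowest of all 8 in both genes, whereas Ct replicate 1 had Bfsp1 below and Bfsp2 above the mean of all libraries. Lmna and Lmnb1 had an r of 0.848 (exact permutation p = 0.00665, adjusted p = 0.120) and a rho of 0.833 (exact permutation p = 0.0154, adjusted p = 0.261), with an r of 0.544 without the 2 farthest libraries. Of the 36 correlations, 5 had an unadjusted p value under 0.05 by Pearson's r and 6 by Spearman's rho. As a description, the genes most like Bfsp1 over the 8 libraries, among 2747 genes averaging 10 FPKM or more, were Mboat1 (r = 0.968), Lgsn, which encodes the lens protein lengsin (r = 0.964), and H2-K2 (r = 0.960). For Bfsp2 they were Gatsl3 (r = 0.977), Mthfd2 (r = 0.954) and Metrnl (r = 0.927), and for Vim Fkbp4, Atp5g3 and Galnt10 (r = 0.953, 0.953 and 0.932). All of these share the scaling of the libraries.

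Among 26 other intermediate filament genes, 10 entered the fit, and 2 of them, Krt13 and Gfap, had a limma p value under 0.05, both lower in CS-exposed mice, beside 4.83% of all genes tested in either direction and 2.08% lower. Neither passed adjustment (limma adjusted p = 0.956 for both), and limma-voom on recovered reads put 4 of the 10 under 0.05 (Krt13, Krt4, Krt6a and Gfap), beside 4.94% of genes. Krt4, Krt6a and Gfap passed the minimum through the Ct group alone, so that their direction was in part fixed by the filter and the counts are a description. Krt13, a keratin of stratified epithelia, was at 2.28, 4.87, 2.21 and 1.37 FPKM in Ct and 0.659, 3.22, 0.884 and 0.755 FPKM in CS-exposed replicates 1 to 4. The log2 fold change of Krt13 was -1.06 with a standard error of 0.46. Gfap, the filament protein of astrocytes, was at 0.627, 2.83, 0.942 and 0.271 FPKM in Ct and 0.268, 0.196, 0.313 and 0.227 FPKM in CS-exposed replicates 1 to 4. Gfap had a log2 fold change of -1.45 with a standard error of 0.57. Without Ct replicate 2 the difference of the log2 means was -0.911 for Gfap and -0.734 for Krt13. Without Ct replicate 4 it was -1.9 for Gfap, and without CS-exposed replicate 2 it was -1.55 for Krt13. Both genes overlapped between groups.

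Krt15, a keratin of basal epithelial cells, was at 3.08, 13.4, 5.34 and 3.12 FPKM in Ct and 2.31, 9.48, 4.18 and 0.707 FPKM in CS-exposed replicates 1 to 4. Of the keratins in the fit, Krt15, Krt5, Krt13, Krt4 and Krt6a were each highest in replicate 2 within both groups. Krt10, Krt18 and Krt19 were not, and Krt14, outside the fit, had its lowest Ct value in replicate 2 (0.358 FPKM). Krt15 had the highest mean of the list over all libraries (5.21 FPKM), which rested on replicate 2, and it was below Krt18 in replicates 1 and 4 of both groups. Krt18 and Krt19, keratins of simple epithelia, had means of 4.44 and 3.19 FPKM with log2 fold changes of -0.21 and -0.20 (limma adjusted p = 0.968 and 0.985). Krt14, picked from the 26 genes after its values were seen, was under the minimum for the fit. It was at 0.358 to 0.977 FPKM in Ct and 0.0861 to 0.230 FPKM in CS-exposed mice, without overlap. With no minimum, 2.26% of all genes had groups that did not overlap. Des and the neurofilament genes were at most 0.384 FPKM, and Krt20 was listed at 0. All 26 genes of this list were thus below the lowest level of Synm.

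**Figure D5:**
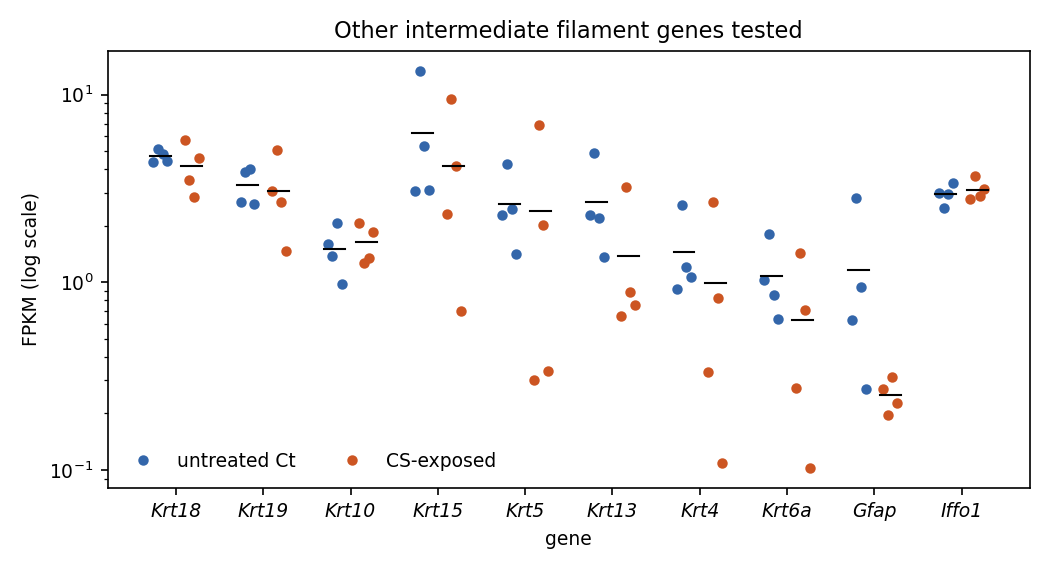
FPKM (log scale) in each library of the 10 other intermediate filament genes that entered the fit, Ct in blue and CS-exposed in orange, with group means as black lines. Krt13 and Gfap had the lowest p values, and the groups overlap for every gene.

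Cytolinkers join filaments to junctions and to other parts of the cytoskeleton. Of 14 cytolinker and desmosome genes fixed for comparison, 13 were listed under these symbols and 8 entered the fit. With limma or with limma-voom, 0 of 8 had a p value under 0.05, beside 4.83% and 4.94% of all genes. The most abundant were Ppl, which encodes periplakin and was at 34.6 FPKM (log2 fold change -0.03, limma adjusted p = 0.985), Pkp4 at 22.8 FPKM (0.06, limma adjusted p = 0.974) and Plec, which encodes plectin, at 18.6 FPKM (-0.04, limma adjusted p = 0.989). Ppl is a partner of the lens filaments and was at 32.5 to 36.1 FPKM over the 8 libraries. Dsp, which encodes the desmosomal anchor of keratin filaments, was at most 0.177 FPKM.

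Partners of the lamins at the nuclear envelope were also measured. Of 16 genes, 15 entered the fit, and 0 had a limma p value under 0.05, against 1 (Lemd3) with limma-voom, beside 4.83% and 4.94% of all genes. Banf1, which bridges chromatin and LEM-domain proteins, was the most abundant at 50.3 FPKM (log2 fold change -0.13, limma adjusted p = 0.956). Lemd2 and Emd, which encodes emerin, followed at 17.3 and 9.17 FPKM (-0.10 and 0.12, limma adjusted p = 0.956 and 0.975). Lemd3, a LEM-domain protein of the inner nuclear membrane, was at 1.103, 1.45, 1.396 and 1.33 FPKM in Ct and 1.25, 1.77, 1.93 and 2.39 FPKM in CS-exposed replicates 1 to 4 (log2 fold change 0.42, limma adjusted p = 0.956).

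Lamins other than lamin C are farnesylated, cleaved and methylated at their end, and all 5 genes of this processing entered the fit. With limma or limma-voom, 0 of 5 had a p value under 0.05, beside the same shares of 4.83% and 4.94%, and counts this small were near those shares in all 3 lists. Fnta, a subunit of farnesyltransferase, was at 46.2 FPKM (log2 fold change 0.06, limma adjusted p = 0.976), Icmt, the methyltransferase, at 7.74 FPKM (-0.12, limma adjusted p = 0.956) and Rce1, the protease, at 5.30 FPKM (0.33, limma adjusted p = 0.956). Zmpste24, which completes the cleavage of prelamin A, was at 1.76 ± 0.197 FPKM in Ct mice and differed by 0.21 on the log2 scale (limma adjusted p = 0.956). Zmpste24 (mean 1.90 FPKM) and Fntb (1.71 FPKM), the other subunit of farnesyltransferase, had means between those of Lmnb1 and Lmnb2, and the other 3 genes were above both.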

How the data were processed

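Paired reads of 150 bases were aligned to GRCm38 with STAR 2.5 and counted on genes with HTSeq 0.6.1 by the authors, who deposited FPKM per library. The annotation release and strand setting are not given in the sources used here. The deposited columns of group means, fold changes and p-values were not used.

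Groups and replicate numbers were taken from sample titles. Members and lists were chosen with earlier results of these data known. The labels describe the pools as biological replicates. The 9794 genes that averaged 1.0 FPKM or more in Ct or CS-exposed libraries were fitted on log2(FPKM + 0.1) with limma 3.58.1 (lmFit, eBayes with trend, two-sided, Benjamini-Hochberg) in R 4.3.3, which understates changes of low genes. Fold changes and intervals are on this scale. Single values were compared by exact permutation over the 70 assignments of 4 and 4 libraries, whose smallest p is 0.0286. Whole reads (within 0.03 of a whole number) were recovered from the steps of FPKM for 99.8% of tested genes, and estimated depth was 18100000 to 23300000 fragments per library, from gene lengths of GENCODE M21, the source of the coordinates. The fit was tested on simulated data. Named genes were the 8 members, list genes with p under 0.05, the 3 most abundant of each list, and those most correlated with Bfsp1, Bfsp2 or Vim. Dsp, Lemd3, Zmpste24, Fntb, other keratins and marker genes were added after values were seen. Python 3.11.15, numpy 2.4.6 and scipy 1.17.1 were used.

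Same-numbered libraries came from different mice. Their deviations correlated at 0.012, 0.0777, 0.111 and 0.161, and those of differently numbered libraries at -0.126 to 0.0552. Some shared variation of same-numbered libraries is thus possible. The numbers were not used as a block in the comparison as reported, and a fit with the block is among the alternatives. Alternatives were other pseudocounts, minimum values, scalings and eBayes settings, a replicate block, sets of libraries and left-out libraries, and limma-voom on recovered reads.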

Additional observations from a re-analysis of the deposited data

How the results depend on the processing

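Of the 9794 genes tested, 473 had a limma p value under 0.05 and 1 an adjusted p value under 0.05. Without a minimum FPKM these were 862 and 0, with a minimum of 5 FPKM the first was 226, and both changes come with the number of genes tested. Adjusted counts were 0 without a trend in eBayes and 0 in replicates 3 and 4, 2 with limma-voom on recovered reads and 5 with the replicate block. With 1 library left out in turn the first count was 417 to 521 and the adjusted one 0 to 1 (0 without Ct replicate 1 or 4). Of all genes with a p value under 0.05, 269 were higher and 204 lower, but 200 were higher and 287 lower once library totals excluded the crystallins, and 220 were higher and 286 lower without CS-exposed replicate 3.

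Of the genes described here, 7 entered the fit, 5 with a minimum of 5 FPKM (not Lmnb1 and Lmnb2) and 8 without a minimum. Of those tested, 0 had a p value under 0.05 in each alternative run except limma-voom, which gave 1 (Bfsp1, log2 fold change 0.07). The same 0 held with the replicate block. Quantile normalization gave Bfsp1 and Bfsp2 a difference of 0, which follows from their ranks. Bfsp1 was 13th in every library, and Bfsp2 was 19th except in Ct replicate 3 and CS-exposed replicate 4, where it was 20th. This setting therefore could not show a difference for the pair. The number of genes without overlap between groups was 1 in replicates 1 and 2 and 4 in replicates 3 and 4, where 2 libraries per group leave 33.4% and 34.8% of all tested genes without overlap, and 0 in all fits without 1 library. Signs changed for Lmna (-0.00165 with totals without crystallins, -0.0415 in replicates 3 and 4, -0.00105 without Ct replicate 2, -0.0321 to 0.0533 over fits without 1 library, the lowest without CS-exposed replicate 2), Synm (-0.0315 in replicates 1 and 2), Lmnb1 (0.094 in replicates 1 and 2) and the log2 ratio of Lmnb2 to Lmnb1, which ranged from -0.118 to 0.0707 over fits without 1 library (0.0707, 0.0212, 0.0573 and 0.0668 without Ct replicates 2 and 4 and CS-exposed replicates 1 and 2). Without Ct replicate 3 the log2 fold change was 0.0256 for Bfsp1, 0.00606 for Bfsp2, -0.0272 for Vim and 0.0107 for Synm, and the log2 ratio of Vim to Bfsp1 was -0.0528. The log2 ratio of Bfsp2 to Bfsp1 was -0.0505 to -0.0144 and that of Lmna to Lmnb2 0.0698 to 0.225 over fits without 1 library. The cause was not tested.

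Leaving out each library for Nes, Krt13 and Gfap was chosen after seeing the data, as were the settings for the correlation of Bfsp1 with Vim. That correlation was -0.195 with median centring, -0.749 with totals without crystallins, -0.887 on deviations from the means of replicates 1 and 2 and of replicates 3 and 4, and -0.877 to -0.809 without each library in turn. Depth limits Nes and the B-type lamins, which rested on 9 to 30 and 71 to 210 reads per library. No sample of the 26 groups of 4 values examined lay apart by Dixon's criterion.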
